A study of Mus musculus with 8 samples.

Results

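The immediate-early response genes examined here were Egr1, Egr2, Egr3, Fos, Fosb, Jun, Junb, Ier2, Atf3 and Dusp1, chosen by gene symbol as 10 of the 24963 genes in an RNA-seq table of the mouse uterus. Whole uteri were taken on gestation day (GD) 3.5 from C57B6/J females mated at 8 weeks of age, as the sample labels state, and the study's methods add that the males were vasectomized, so no embryo was present. The controls, Nr2f2 f/f, carried Nr2f2 flox/flox without Cre, although their labels read WT. The mutants, Nr2f2 d/d, were Pgr Cre/+; Nr2f2 flox/flox, in which Cre knocked into 1 allele of the progesterone receptor gene deletes Nr2f2, the nuclear receptor COUP-TFII, in the cells that use the Pgr promoter. Cre and the altered Pgr allele therefore came with the deletion, and their effects cannot be told apart from it. There were 4 libraries of each genotype and no treatment. The labels do not say whether each library was 1 mouse, so the p-values measure the spread between these libraries.

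Immediate-early genes are transcribed within minutes of a growth factor, hormone, stress or mechanical signal, without new protein synthesis. At their promoters, ETS-family factors that MAP kinases phosphorylate sit with serum response factor on CArG boxes. CREB, which other kinases phosphorylate, sits on cyclic AMP response elements. Most of the resulting mRNAs are short-lived. The products are mainly transcription factors: zinc-finger EGR proteins, and FOS and JUN proteins that pair as AP-1. DUSP1 dephosphorylates MAP kinases and so ends the signal. In the rodent uterus, estrogen induces several of them, Fos and Egr1 included. Handling of tissue before lysis can also induce them, and no time from dissection to lysis is stated in the sources used here.

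These sequences were printed to show the signal-responsive elements in the promoters of members for which RefSeq windows were matched, 7 of 10 (not Egr1, Egr3 or Ier2), with 11 start sites between them. Shown are 6 windows of 5 genes. The windows of Jun and Junb and 3 more of Egr2, of which 2 overlap start site B and 1 has no CArG box, are left out. Each line is the 250 bases before an annotated start site, 5′ to 3′ on the strand of the gene, in build GRCm38.p6. Capitals mark every match, on either strand, to the CArG box, TGACGTCA, its part TGACG, the AP-1 site TGANTCA, the EGR sites GCGGGGGCG and GCGTGGGCG, the ETS core CCGGAA, the SP1 box GGGCGG, the usual TATA box TATAAA, the core motif AGGTCA of nuclear receptors such as NR2F2, and its variant form GGGTCA. TGACGTCA holds TGACG, and the EGR sites can overlap the SP1 box.
Egr2, start site A, chr10:67537316-67537565, plus strand: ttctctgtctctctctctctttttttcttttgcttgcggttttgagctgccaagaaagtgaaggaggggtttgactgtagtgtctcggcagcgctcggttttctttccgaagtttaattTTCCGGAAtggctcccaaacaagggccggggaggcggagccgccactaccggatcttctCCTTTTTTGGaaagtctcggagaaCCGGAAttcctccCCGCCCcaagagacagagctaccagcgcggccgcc
Egr2, start site B, chr10:67537619-67537868, plus strand: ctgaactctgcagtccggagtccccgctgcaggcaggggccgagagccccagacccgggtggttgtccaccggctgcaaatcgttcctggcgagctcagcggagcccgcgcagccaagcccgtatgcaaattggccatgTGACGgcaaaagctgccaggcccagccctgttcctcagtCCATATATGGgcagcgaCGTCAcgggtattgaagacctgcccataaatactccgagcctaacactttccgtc
Fos, chr12:85473640-85473889, plus strand: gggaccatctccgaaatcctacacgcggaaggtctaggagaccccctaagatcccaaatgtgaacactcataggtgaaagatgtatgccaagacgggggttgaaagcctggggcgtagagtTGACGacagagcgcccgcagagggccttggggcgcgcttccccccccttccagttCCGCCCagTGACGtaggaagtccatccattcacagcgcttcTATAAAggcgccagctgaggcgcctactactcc
Fosb, chr7:19310046-19310295, minus strand: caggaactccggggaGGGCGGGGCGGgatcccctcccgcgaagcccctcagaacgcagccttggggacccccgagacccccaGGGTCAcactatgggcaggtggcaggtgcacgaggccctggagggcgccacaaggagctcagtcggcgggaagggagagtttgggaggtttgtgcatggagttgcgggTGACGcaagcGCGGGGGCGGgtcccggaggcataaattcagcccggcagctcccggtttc
Atf3, chr1:191183334-191183583, minus strand: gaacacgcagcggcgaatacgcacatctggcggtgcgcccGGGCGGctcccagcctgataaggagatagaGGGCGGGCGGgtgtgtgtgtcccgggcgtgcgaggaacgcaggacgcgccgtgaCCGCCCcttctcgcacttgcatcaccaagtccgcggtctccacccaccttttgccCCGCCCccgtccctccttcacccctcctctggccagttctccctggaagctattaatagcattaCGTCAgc
Dusp1, chr17:26508473-26508722, minus strand: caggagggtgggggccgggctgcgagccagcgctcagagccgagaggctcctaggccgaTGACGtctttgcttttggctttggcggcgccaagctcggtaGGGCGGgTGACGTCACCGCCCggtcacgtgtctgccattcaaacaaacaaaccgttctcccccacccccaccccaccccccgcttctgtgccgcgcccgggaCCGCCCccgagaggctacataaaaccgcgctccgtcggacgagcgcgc

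The Egr2 windows showed CArG boxes in separate places. Start site A had 1 whose first base lay at position -72, between ETS cores at -129 and -48, and start site B had another at -72 flanked by TGACG on opposite strands at -111 and -55. The Fos window carried TGACG at -129 and -66 and TATAAA at -33. The Fosb window carried TGACG at -60, an EGR site at -50 and GGGTCA at -168. In Dusp1 the whole TGACGTCA stood at -143, and in Atf3 TGACG stood at -7 on the opposite strand beside 5 SP1 boxes. Over windows of 300 bases (250 before and 50 after the start), TGACG occurred in 6 of 7 members and in 20.8% of all 32851 RefSeq promoters. For this and the next motifs, a member counted if any of its windows matched, and Egr2 had 5. The shares of promoters count each window by itself, so they are not like for like. The SP1 box occurred in 6 of 7 members and in 35.7% of promoters. The CArG box occurred in 1 of 7 members (Egr2) and in 1.63% of promoters. Elements more than 250 bases before a start were not searched, in Fos or any other member. The AP-1 site TGANTCA and AGGTCA were in none of the 7, against 7.81% and 16.3% of promoters, and GGGTCA was in 1 of 7, against 13.7%. Only these exact letters were searched as the AP-1 site. Longer forms, such as TGACATCA in the Jun window, were not counted. The members' windows were 56 to 72% G and C, where the median promoter was 52.7%, and TGACG and GGGCGG are themselves rich in these bases. A match is only a run of letters, and no match says nothing about binding.

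Depth, recovered from the steps of the FPKM values (fragments scaled to transcript length and library total), was 60950000 to 92300000 fragments a library (medians 61925000 for the controls and 81050000 for the mutants). This is about 103 (Egr2) to 10428 (Jun) fragments for a member in a library, with a counting error of at most 9.84%. Nr2f2 itself was 25.3, 21.8, 25.7 and 23.5 FPKM in the controls, and 9.66, 9.42, 6.90 and 9.74 FPKM in the mutants, in the order of replicates 1 to 4, as all values by library are given. The mutant mean was 37.1% of the control mean, and every library matched its label. Of the 14323 genes that averaged 0.5 FPKM or more, 375 (2.62%) passed limma at an adjusted p under 0.05. The mutants were higher for 156 (1.09%) and lower for 219 (1.53%). Median-ratio scaling in place of the FPKM as deposited gave 192 higher and 172 lower.

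Of the 10 immediate-early genes, Egr1 alone met the threshold of the study, and no joint shift of the genes was tested. None of the 10 passed the adjusted p, where 2.62% of genes did. An unadjusted p under 0.05 in limma was found for 2 of 10 (Egr1 and Atf3), close to the 21.2% of all genes tested. That count was 4 without Nr2f2 f/f replicate 2 (Ier2 and Jun as well), where 2911 of 14306 genes had such a p. It was 3 without Nr2f2 d/d replicate 3 or 4, under quantile normalization and with a replicate block by column labels. By the threshold of the study, an unadjusted p under 0.05 with a change of at least 1.4-fold, 1 of 10 was called, Egr1, which was lower. That threshold called 8.8% of all genes and 4.1% as lower. No member had groups that did not overlap, where 15.4% of genes had. The log2 difference was above 0 for 7 members and below 0 for 3, with a median of 0.11 (all genes tested -0.02). That median rested on single libraries: it was 0.02 when Nr2f2 f/f replicate 2 was left out, 0.06 for Nr2f2 f/f replicate 3 and 0.07 for Nr2f2 d/d replicate 4. The mean log2 level of the 10 members was 2.54 to 2.80 in the controls and 2.63 to 2.80 in the mutants.

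**Figure D1:**
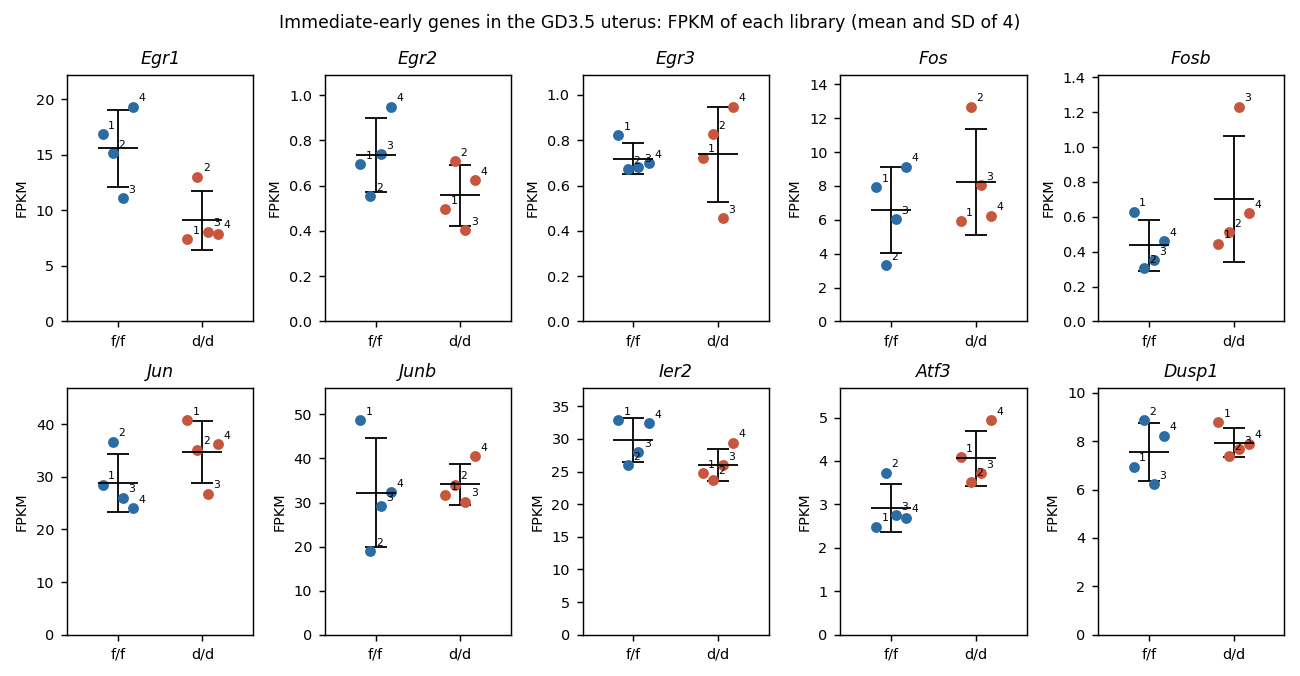
FPKM of each of the 10 immediate-early genes in the 4 Nr2f2 f/f (blue) and 4 Nr2f2 d/d (red) libraries, numbered by replicate, on linear axes that start at 0; black bars give the mean and SD. Egr1 had 3 of 4 Nr2f2 d/d libraries below every Nr2f2 f/f library, and the groups overlapped in all 10 panels.

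Among the EGR factors, the means of Egr1 and Egr2 were lower in Nr2f2 d/d, that of Egr3 was not, and none of them passed the adjusted p. Egr2 and Egr3 were far less abundant than Egr1. Egr1 encodes the zinc-finger factor for which the family is named and lies on chromosome 18 (34859823 to 34864984, plus strand, mm10). It was 16.9, 15.1, 11.1 and 19.3 FPKM in Nr2f2 f/f and 7.41, 13.0, 8.09 and 7.88 FPKM in Nr2f2 d/d. Nr2f2 d/d replicates 1, 3 and 4 lay below all controls, and replicate 2 lay within the control range. The mean was 15.6 ± 3.46 FPKM (SD, n = 4) for the controls and 9.10 ± 2.63 FPKM (SD, n = 4) for the mutants, or 58.3% of the control. On the log2 scale the difference was -0.75 (SE 0.21, 95% interval -1.24 to -0.26), with an unadjusted p of 0.00743 and an adjusted p of 0.101 in limma. The exact two-sided permutation test gave p = 0.0571, where 4 libraries against 4 cannot go below 0.0286.

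Egr2, a relative of Egr1 induced by the same signals (chromosome 10, 67535475 to 67542188, plus strand), was 0.694, 0.553, 0.740 and 0.949 FPKM in Nr2f2 f/f and 0.497, 0.709, 0.404 and 0.624 FPKM in Nr2f2 d/d. The lowest mutants lay below the controls but the ranges overlapped, and the difference was -0.22 (95% interval -0.55 to 0.11, adjusted p = 0.408 in limma). It was -0.14 without Nr2f2 f/f replicate 4 and -0.34 at a pseudocount of 0.1. Egr3, the third family member (chromosome 14, 70077203 to 70082614, plus strand), was 0.822, 0.673, 0.682 and 0.698 FPKM in Nr2f2 f/f and 0.723, 0.826, 0.455 and 0.948 FPKM in Nr2f2 d/d. The mutants spread on both sides of the controls, with a highest-to-lowest ratio of 2.08 against 1.22 in the controls. The log2 difference of Egr3 was 0.01 (95% interval -0.32 to 0.34, adjusted p = 0.984 in limma), and its sign turned under other settings. Egr4 was below the filter and was not tested.

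The AP-1 genes showed no difference that passed a test, with intervals too wide to set aside a change of 1.4-fold upward for any of the 4. Fos, the FOS partner of the classical AP-1 dimer (chromosome 12, 85473890 to 85477273, plus strand), was 7.93, 3.31, 6.05 and 9.13 FPKM in Nr2f2 f/f and 5.91, 12.7, 8.05 and 6.24 FPKM in Nr2f2 d/d. The lowest value was Nr2f2 f/f replicate 2 and the highest Nr2f2 d/d replicate 2, with the other libraries between them. The difference in Fos was 0.32 (95% interval -0.44 to 1.07, adjusted p = 0.616 in limma), and it was 0.04 without Nr2f2 f/f replicate 2. Fosb, a close FOS relative (chromosome 7, 19302696 to 19310051, minus strand), was 0.629, 0.305, 0.350 and 0.461 FPKM in Nr2f2 f/f and 0.446, 0.512, 1.23 and 0.621 FPKM in Nr2f2 d/d. Only Nr2f2 d/d replicate 3 lay above all the controls. The difference in Fosb was 0.33 (95% interval -0.16 to 0.82, adjusted p = 0.400 in limma), and at a pseudocount of 0.1 it was 0.53.

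Jun, which encodes the JUN partner of AP-1 (chromosome 4, 95049034 to 95052222, minus strand), was 28.5, 36.6, 26.1 and 24.0 FPKM in Nr2f2 f/f and 40.8, 35.2, 26.7 and 36.1 FPKM in Nr2f2 d/d. The groups overlapped, and the difference was 0.27 (95% interval -0.11 to 0.64, adjusted p = 0.376 in limma). Junb, a JUN relative that can oppose JUN at some promoters (chromosome 8, 84974484 to 84978718, minus strand), was 48.7, 18.9, 29.1 and 32.3 FPKM in Nr2f2 f/f and 31.6, 34.0, 30.2 and 40.5 FPKM in Nr2f2 d/d. The controls held both the highest and the lowest library, a 2.57-fold range against 1.34-fold in the mutants. The difference in Junb was 0.15 (95% interval -0.43 to 0.73, adjusted p = 0.779 in limma), and it turned to -0.08 without Nr2f2 f/f replicate 2. Of the exon bases, 7.28% in Jun and 7.52% in Junb also lie in a gene on the opposite strand (Junos and Prdx2), and the strand setting of the counting is not given in the sources used here.

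**Figure D2:**
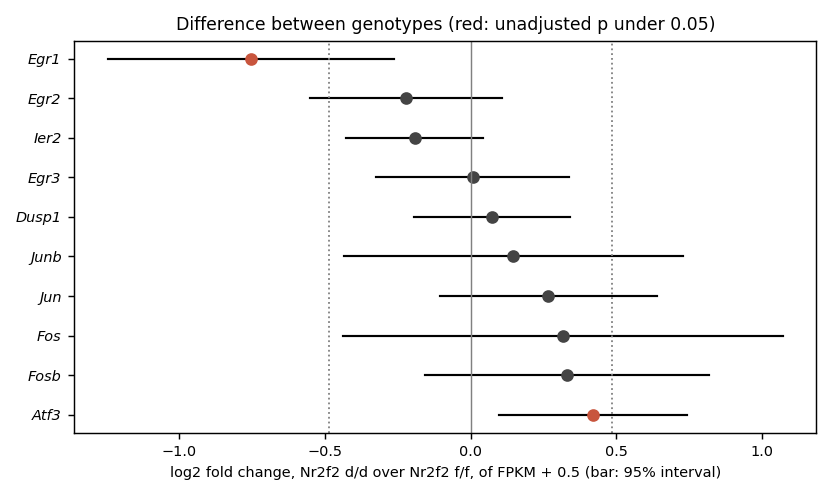
Log2 fold change of each immediate-early gene in Nr2f2 d/d over Nr2f2 f/f (horizontal axis, on FPKM + 0.5) with its 95% interval from limma; dotted lines mark a change of 1.4-fold either way and red points an unadjusted p under 0.05. The interval lies to one side of 0 for Egr1 (-1.24 to -0.26) and Atf3 (0.10 to 0.74) and includes 0 for the other 8 genes.

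Atf3, a stress-induced member of the ATF/CREB family (chromosome 1, 191170296 to 191218039, minus strand), ran the other way to Egr1. It was 2.49, 3.73, 2.75 and 2.70 FPKM in Nr2f2 f/f and 4.09, 3.52, 3.71 and 4.94 FPKM in Nr2f2 d/d. Nr2f2 d/d replicates 1 and 4 lay above all controls, and the controls overlapped the mutants through Nr2f2 f/f replicate 2 alone. The difference was 0.42 (SE 0.14, 95% interval 0.10 to 0.74), or 1.34-fold, which is under the fold of the study. Its unadjusted p was 0.0166 and its adjusted p 0.146 in limma, and the exact two-sided permutation test gave p = 0.0857. Without Nr2f2 f/f replicate 2, Atf3 reached the threshold of the study as well.

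Ier2, a nuclear protein gene of 1 exon induced with the others (chromosome 8, 84661331 to 84662852, minus strand), was 32.9, 26.0, 28.0 and 32.4 FPKM in Nr2f2 f/f and 24.8, 23.7, 26.0 and 29.4 FPKM in Nr2f2 d/d. It varied less than Jun and Junb, the other abundant members, and the difference was -0.19 (95% interval -0.43 to 0.04, adjusted p = 0.319 in limma). Dusp1, the MAP kinase phosphatase (chromosome 17, 26505590 to 26562128, minus strand), was 6.94, 8.87, 6.22 and 8.23 FPKM in Nr2f2 f/f and 8.78, 7.39, 7.66 and 7.90 FPKM in Nr2f2 d/d. The mutants lay inside the range of the controls. The difference in Dusp1 was 0.07 (95% interval -0.19 to 0.34, adjusted p = 0.758 in limma), so these libraries set aside a 1.4-fold change of Dusp1 in either direction.

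The levels were ordered in FPKM, and so per length. In Nr2f2 f/f the highest means were Junb (32.3), Ier2 (29.8) and Jun (28.8 FPKM), whose ranges overlapped. Egr1 followed at 15.6 FPKM, apart in range from Jun above it and Dusp1 below it. Its highest control, 19.3 FPKM, passed the lowest control of Junb, 18.9 FPKM. Then came Dusp1 (7.57), Fos (6.60) and Atf3 (2.92 FPKM), with overlapping ranges between neighbours, and last Egr2 (0.734), Egr3 (0.719) and Fosb (0.436 FPKM). In Nr2f2 d/d Egr1 at 9.10 FPKM was no longer apart from Fos at 8.22 FPKM and Dusp1 at 7.93 FPKM. The highest means in Nr2f2 d/d were Jun (34.7), Junb (34.1) and Ier2 (26.0 FPKM), Atf3 stood at 4.07 FPKM, and Egr3 (0.738), Fosb (0.703) and Egr2 (0.559 FPKM) were lowest.

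Egr1 was also set against each other member within the same library. The ratio of Egr1 to Fos was 2.13, 4.57, 1.84 and 2.12 in the controls and 1.25, 1.03, 1.01 and 1.26 in the mutants. Those groups did not overlap, and Nr2f2 d/d replicate 2, the mutant with the highest Egr1, also held the highest Fos. The ratio of Egr1 to Jun was 0.413 to 0.804 in the controls and 0.182 to 0.370 in the mutants. The ratio to Atf3 was 4.03 to 7.16 in the controls and 1.595 to 3.70 in the mutants, and that to Fosb 26.8 to 49.6 and 6.57 to 25.4. Of the 9 ratios, these 4 did not overlap between genotypes and 5 did (Egr2, Egr3, Junb, Ier2 and Dusp1). Over all 14281 other tested genes above 0 in every library, 12.7% of ratios of Egr1 to the gene did not overlap. A ratio within a library shows unequal change of the genes and not which of them changed, and the ratios share Egr1, so they were given no test.

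**Figure D3:**
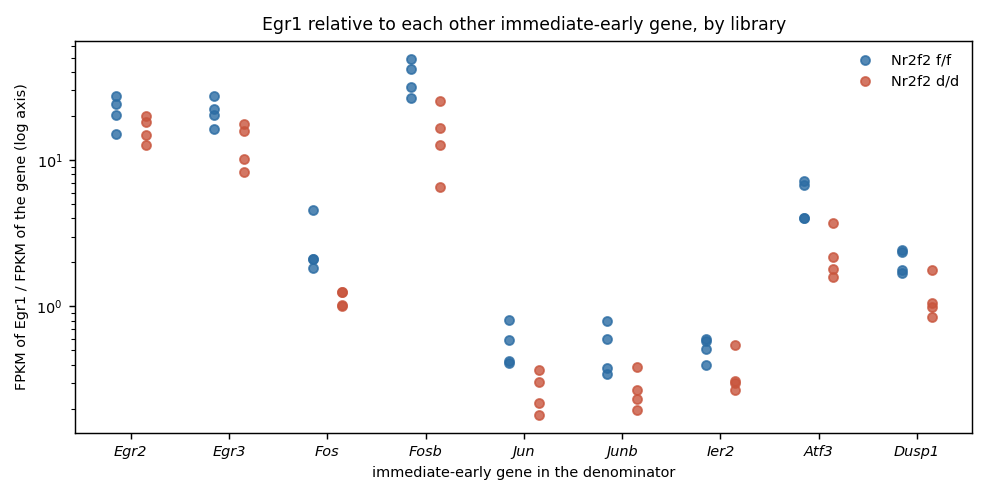
FPKM of Egr1 divided by that of each other immediate-early gene in the same library (log axis), for 4 Nr2f2 f/f (blue) and 4 Nr2f2 d/d (red) libraries. The genotypes are apart for the ratios to Fos, Fosb, Jun and Atf3 and overlap for the other 5.

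No common rise and fall of the members was seen from library to library, though 8 libraries cannot show that there is none. Replicate spread was wide for some members. The SD was 38.4% of the mean for Fos and 38.3% for Junb in Nr2f2 f/f, and 37.9% for Fos and 51.2% for Fosb in Nr2f2 d/d, well above the counting error. It was 11.4% and 9.51% for Ier2. No library was highest for more than 2 members, and Nr2f2 f/f replicate 2 was lowest for 3, Fos, Fosb and Junb. Deviations from the group means were compared for all 45 pairs of members over the 8 libraries. Pearson's r ranged from -0.85 to 0.80 with a median of 0.10, and 25 pairs were positive and 20 negative. Given as a description, the ends were Fos with Atf3 (r = -0.85, Spearman's rho -0.86) and Junb with Ier2 (r = 0.80, rho 0.74), and leaving out the 2 farthest libraries gave -0.69 and 0.73. By the same measure on the levels of the 8 libraries, the genes most like Egr1 among 13205 compared were Cdk17 (r = 0.95), Tiprl, Dpysl3 and C2cd2 (0.94 each) and Trove2 (0.93). Those most like the mean of the members were Zfp869 (0.94), Tm2d3 (0.93), Bcar1, Pja2 (0.91 each) and Zfp36 (0.90), the last an immediate-early gene itself, whose product destabilizes mRNAs.

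**Figure D4:**
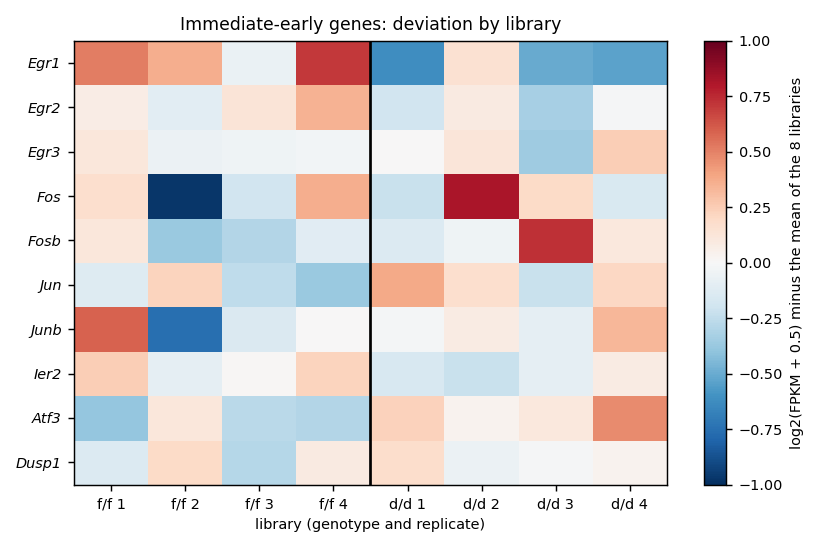
Deviation of log2(FPKM + 0.5) from the mean of the 8 libraries for each immediate-early gene (rows) in each library (columns; the black line parts Nr2f2 f/f from Nr2f2 d/d); red is above and blue below the mean. No column is of 1 color throughout, and in the Egr1 row 3 of the 4 Nr2f2 d/d libraries are clearly below the mean.

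In a wider list of 36 other immediate-early genes, 35 were tested, 2 fell and none rose (2.62% of all genes were called), with a median log2 difference of -0.08. Myc, the growth-promoting transcription factor, was 51.7, 66.8, 49.6 and 55.1 FPKM in Nr2f2 f/f and 26.3, 32.6, 28.7 and 28.2 FPKM in Nr2f2 d/d. The groups were far apart, and Myc fell by 0.93 on the log2 scale (SE 0.11, adjusted p = 0.00888 in limma). Rgs2, which shortens signaling by G proteins of the Gq class, was 138, 144, 165 and 174 FPKM in Nr2f2 f/f and 61.8, 75.1, 54.7 and 85.3 FPKM in Nr2f2 d/d. It fell by 1.18 on the log2 scale (SE 0.15, adjusted p = 0.0132 in limma), though its adjusted p was 0.0513 without Nr2f2 d/d replicate 1. By the threshold of the study 5 of the 35 were called, Myc, Rgs2, Klf2 and Klf10 as lower and Gadd45g as higher, the last 3 named after their values were seen, where 8.8% of all genes were called. Groups did not overlap for 5 of the 35, against 15.4% of all genes.

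Among 18 tested AP-1 and ATF partners of a list of 19, 2 rose and none fell (2.62% of all genes were called), with a median of -0.02. By the threshold of the study 3 of the 18 were called, all as higher, Batf, Batf2 and Jdp2 (8.8% of all genes), and 4 had groups that did not overlap (15.4% of all genes). Jdp2, a JUN-dimerizing repressor of AP-1 named after its values were seen, had the largest difference of the list at 0.79, or 1.73-fold (SE 0.20, adjusted p = 0.0775 in limma), with all mutants above all controls. Jund, the JUN member that is expressed without stimulation, was 77.7, 77.7, 76.4 and 78.0 FPKM in Nr2f2 f/f and 96.4, 107, 90.7 and 104 FPKM in Nr2f2 d/d. All mutants lay above all controls, with a difference of 0.36 (SE 0.07, adjusted p = 0.0413 in limma), or 1.28-fold. Batf, an AP-1 factor of lymphoid and myeloid cells, was 3.89, 3.93, 4.77 and 4.10 FPKM in Nr2f2 f/f and 5.52, 6.57, 5.92 and 6.33 FPKM in Nr2f2 d/d. Its difference was 0.50 (SE 0.09, adjusted p = 0.0335 in limma). When 1 library was left out, each call was lost in 7 of 8 cases (Jund was kept without Nr2f2 d/d replicate 3 and Batf without Nr2f2 f/f replicate 3), with adjusted p up to 0.132 for Jund and 0.112 for Batf. Jund was also lost under quantile normalization (difference 0.26, adjusted p = 0.105) and robust variance moderation (0.0513), and Batf without a filter on low values (0.0509). In the same libraries 2 of 6 tested T and NK cell markers rose, Cd3d and Gzmb, and the list summed to 51.0 to 68.6 FPKM in Nr2f2 f/f and 71.8 to 216 FPKM in Nr2f2 d/d. Those 2 calls fell to 0 when Nr2f2 f/f replicate 1 or 4 or Nr2f2 d/d replicate 1 or 2 was left out, and to 1 without Nr2f2 f/f replicate 2 or Nr2f2 d/d replicate 4. Their part in the rise of Batf was not tested.

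The genes that carry the signal to these promoters did not pass the adjusted p. Of 21 upstream kinases and serum response factors none was called, against 2.62% of all genes, with a median of -0.07. The smallest p were those of Elk4, an ETS partner of serum response factor, with a difference of -0.70 (SE 0.17, adjusted p = 0.0721 in limma), of Creb1, the CREB factor, at -0.26 (adjusted p = 0.125), and of the kinase Braf at -0.30 (adjusted p = 0.276). Elk4 was 4.27, 4.34, 3.41 and 3.85 FPKM in Nr2f2 f/f and 2.88, 1.61, 2.82 and 1.90 FPKM in Nr2f2 d/d, with no overlap, and was the only 1 of the 21 at the threshold of the study (8.8% of all genes). Elk4 and Creb1 were the 2 of 21 whose groups did not overlap (15.4% of all genes). Of 13 tested MAP kinase phosphatases and EGR corepressors of a list of 14, none was called, again against 2.62% of all genes, with a median of -0.04. The smallest p were those of Dusp8 at 0.37 (adjusted p = 0.158 in limma), Dusp5 at 0.31 (0.278) and Spry1 at -0.33 (0.327).

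**Figure D5:**
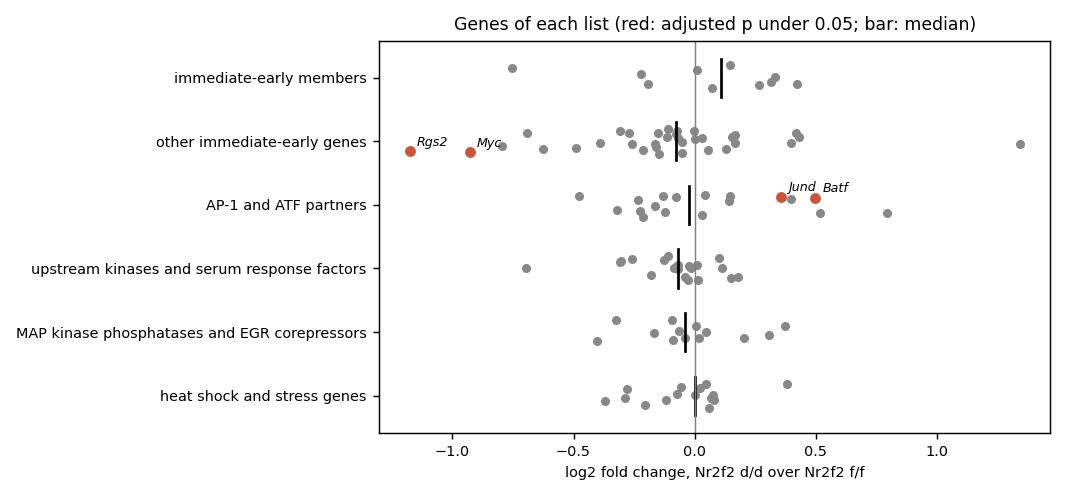
Log2 fold change in Nr2f2 d/d over Nr2f2 f/f (horizontal axis) of every tested gene of 6 lists (rows; points are scattered vertically only to part them); black bars are medians and red points have an adjusted p under 0.05. Myc and Rgs2 lie below 0, Jund and Batf above 0, and none of the 10 immediate-early genes at the top is red.

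Heat shock genes, which respond to handling and stress as well, gave no call among 15 (2.62% of all genes), and none had an unadjusted p under 0.05 (21.2% of all genes). The smallest p were those of Hspa1b at 0.38 (adjusted p = 0.242 in limma), Hspd1 at -0.28 (0.298) and Hspa8 at -0.21 (0.487). Their FPKM summed to 1310 to 1578 in the controls and 1181 to 1700 in the mutants, with the highest sum in Nr2f2 d/d replicate 2. That library also held the highest Fos of all and the highest Egr1 of the mutants, and the part of stress in those values was not tested. Without it the difference in Egr1 was -0.93 (adjusted p = 0.0865 in limma) and that in Fos 0.10 (adjusted p = 0.904).

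In whole uterus, fewer cells of a type and less mRNA per cell cannot be told apart. Beside the counts of markers called here, 1.53% of all genes were called as lower and 1.09% as higher. Of 6 endothelial markers 4 fell (Cdh5, Pecam1, Emcn and Kdr), Tek had a difference of -0.74 (adjusted p = 0.0654 in limma) and Cldn5 one of 0.10 (adjusted p = 0.897), and the list summed to 172 to 239 FPKM in Nr2f2 f/f and 112 to 136 FPKM in Nr2f2 d/d. The 4 calls fell to 0 without Nr2f2 f/f replicate 1 or Nr2f2 d/d replicate 1 or 2, to 1 without Nr2f2 f/f replicate 4 and to 2 without Nr2f2 f/f replicate 2 or Nr2f2 d/d replicate 4. Pecam1 stayed at 27.6 to 34.4 FPKM in Nr2f2 d/d, and Kdr, the lowest of the 4, at 7.79 to 10.5 FPKM. The part of the endothelial markers in the lower Egr1, Myc and Rgs2 was not tested. The labelled tissue showed its markers in every library: epithelial markers summed to 751 to 796 FPKM in Nr2f2 f/f and 889 to 1100 FPKM in Nr2f2 d/d (1 of 7 rose, Krt8), and smooth muscle markers to 1225 to 1741 and 985 to 2449 FPKM (0 of 6 called). Stromal markers summed to 1177 to 1446 and 1621 to 2491 FPKM, but they went both ways, with 3 of 7 higher, 4 lower and a median of -0.09. Dcn rose, from a mean of 410 to 705 FPKM, and Col1a1, the other large part of the higher sum, had means of 175 and 608 FPKM (adjusted p = 0.0626 in limma), while Vim was lower at the threshold of the study (-0.66, adjusted p = 0.113). The call of Dcn was lost without Nr2f2 f/f replicate 1 or 4 or Nr2f2 d/d replicate 1 or 2. Macrophage markers summed to 102 to 199.9 and 139 to 211 FPKM (0 of 6 called), neutrophil markers to 3.67 to 21.4 and 18.7 to 42.2 FPKM (0 of 4 tested were called), and mesothelial markers to 69.6 to 95.8 and 87.3 to 109 FPKM (1 of 5 rose, Msln, a call that was lost in 7 of 8 cases with a library left out and without a filter on low values, while Wt1 had a difference of -0.31, adjusted p = 0.257). Gland markers gave 0 of 5 calls and summed to 143 to 1627 and 122 to 207 FPKM. The 1627 FPKM was Nr2f2 f/f replicate 2, which held 1444 FPKM of the gland protease Prss29 and the lowest Fos, Fosb and Junb, and the part of its gland content was not tested.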

How the data were processed

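RNA of whole GD3.5 uteri was sequenced as paired-end reads from TruSeq RNA v2 libraries on an Illumina NextSeq. The deposited values are FPKM. Per the labels and methods, the authors used cutadapt 1.12, STAR 2.5.2b with mm10 and featureCounts 1.5.0-p1, and Cufflinks 2.0.2 is listed without a role. The annotation, the strand setting and the step that made the FPKM are not given in the sources used here. The authors tested counts with DESeq2, which were not used here. Groups came from the titles and genotype labels, 4 libraries each, and the 8 columns were matched by name. Replicate numbers are those of the titles.

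The values used were log2(FPKM + 0.5). Tests were two-sided, by limma 3.58.1 under R 4.3.3 with a trend of variance on mean level, for the 14323 of 24963 genes that averaged 0.5 FPKM or more, with Benjamini-Hochberg adjustment over all of them and a call at an adjusted p under 0.05. SE and 95% intervals are those of this fit. Members were also compared by exact two-sided permutation tests (Python 3.11.15, scipy 1.17.1). A log2(FPKM + 0.5) difference understates changes of low genes such as Egr2, Egr3 and Fosb. Changes are relative to the library total.

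Depth was the library total at which the FPKM of single-exon genes became whole fragments within 0.1, which held for 86.8 to 89.4% of values, against a median of 13.6 to 15.8% at other totals. Counting errors cover counting only. Gene positions are from GENCODE vM21 (mm10).

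The members and all lists were chosen with earlier results of these data known. Named genes were the 10 members, Nr2f2, in each pathway list those with an adjusted p under 0.05 or otherwise the 3 with the smallest p, and the 5 genes most correlated with Egr1 and with the mean of the members (mean of at least 1 FPKM). Cell type markers were named where called, and Col1a1, Vim, Wt1, Tek, Cldn5 and Prss29 after their values were seen. Alternatives were other pseudocounts, filters, scalings and variance models, a replicate block and leaving out each library.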

Additional observations from a re-analysis of the deposited data

Results flagged for a closer look

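In 22 groups of 4 libraries (11 genes in both genotypes), 3 held a library set apart from the rest of its group by Dixon's 95% criterion, the gap to the nearest library over the range of the group. Chance gives about 1 in 20. Egr1 in Nr2f2 d/d replicate 2 was 13.0 FPKM, above the other mutants by 0.879 of the range. Egr3 in Nr2f2 f/f replicate 1 was 0.822 FPKM, above the other controls by 0.832 of the range. Nr2f2 in Nr2f2 d/d replicate 3 was 6.90 FPKM, below the other mutants by 0.888 of the range.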

How the results depend on the processing

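No immediate-early gene passed an adjusted p of 0.05 in limma under any of 18 alternatives. Egr1 stayed negative in all of them, at -0.93 to -0.65 (adjusted p 0.0822 to 0.227) with 1 library left out and -0.78 to -0.72 (adjusted p 0.1002 to 0.290) otherwise. It kept the threshold of the study in every case but the replicate block by column labels, where its unadjusted p was 0.0916. Members at that threshold ranged from 1 to 2 with 1 library left out, and were 2 (Egr1 and Atf3) without Nr2f2 f/f replicate 2. The sign of Egr3 turned at a pseudocount of 0.1 (-0.00121), under quantile normalization (-0.0220) and with a library left out (-0.0733 to 0.127), that of Junb with a library left out (-0.0786 to 0.369), and that of Dusp1 likewise (-0.0104 to 0.149). The cause was not tested. A filter at a mean of 1 FPKM removes Egr2, Egr3 and Fosb, and leaving out Nr2f2 d/d replicate 3 removes Fosb.

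The replicate numbers of the titles and of the column labels differ. Deviations of libraries with the same number had r = -0.20 to 0.05 for the titles and -0.20 to 0.15 for the column labels. With so few pairs and no test, these values cannot tell whether libraries with the same number were handled together. With the replicate block of the titles, Egr1 alone of the members met the threshold of the study, and 1 gene in all was called. With the block of the column labels, where Nr2f2 f/f replicate 2 and Nr2f2 d/d replicate 3 have no partner, 2 members met it (Atf3 and Jun), Junb was -0.0236, and 0 genes were called in limma, with 3198 at an unadjusted p under 0.05. Myc, Rgs2, Jund and Batf were not called under either block (adjusted p up to 0.0917, 0.0748, 0.1599 and 0.148), and neither was any endothelial, T and NK cell, epithelial, stromal or mesothelial marker. Under the block of the column labels the median of the members was 0.05, and the differences were 0.03 for Fos, 0.07 for Fosb, 0.51 for Jun, 0.16 for Dusp1 and 0.11 for Egr3. With 1 library left out, Fos ranged from 0.04 to 0.49.

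All calls over the 14323 genes numbered 375 in limma and 42 to 348 with 1 library left out. The calls were 62, 208 and 95 when control replicates 1, 3 and 4 were dropped in turn, and 57 and 42 when mutant replicates 1 and 2 were. Counting error limits the low members most: for Egr3 in the controls it was up to 7.44%, beside a replicate SD of 9.68% of the mean.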
